A study of Homo sapiens with 36 samples.

Results

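The effect of GSK-J4 was examined within cisplatin-treated 2102EP-C1 cells, by setting the combination of GSK-J4 and cisplatin against cisplatin alone. The members were chosen by their labels as the 3 combination and the 3 cisplatin libraries of this line, 6 of the 36 RNA-seq libraries of the series, and all 17035 genes of their table were tested. 2102EP-C1 is 1 cisplatin-resistant clone of 2102EP, a human embryonal carcinoma line derived from a testicular germ cell tumor. Cisplatin cells received 0.5 µM cisplatin for 6 h. Combination cells received 1 µM GSK-J4 for 3 days before the same cisplatin exposure, and both were harvested 24 h after cisplatin. Both other arms of the same experiment were used beside them, which are untreated cells and cells given 1 µM GSK-J4 for 3 days without cisplatin, with 3 libraries each. All 12 libraries came from the same clone, and the labels name no deletion or transgene in it. The same contrast was read in NT2/D1-A4, a resistant clone of another embryonal carcinoma line, and 2102EP-C1 cells with hairpins against KDM6A and KDM6B (sh6A+6B) were set against empty-vector pLKO1 cells, both after cisplatin.

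GSK-J4 inhibits KDM6A and KDM6B, the demethylases that remove the polycomb mark H3K27me3 from chromatin. Inhibition leaves more of this repressive mark in place. Embryonal carcinoma cells resemble pluripotent stem cells and usually carry wild-type p53, the transcription factor that answers DNA damage with cell cycle arrest and death genes, and cisplatin crosslinks DNA. A separate program, the integrated stress response, reduces general translation and raises the transcription factors ATF4 and CHOP (gene DDIT3), which drive amino acid synthesis and transport genes. Sterol and fatty acid synthesis genes answer to the SREBP factors, and glycolysis genes answer in part to the hypoxia factor HIF-1.

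The libraries held 36.5 to 38.4 M (1e6) counted reads with cisplatin and 35.3 to 40.4 M with the combination (medians 38.0 and 39.4), against 34.8 to 53.6 M in untreated and 30.3 to 35.4 M in GSK-J4 cells. The series describes the replicates as biological triplicates. P-values and ± values (SE) rest on a spread between replicates that was pooled over the 12 libraries of the 4 arms and moderated across genes. They can understate the spread of a gene whose combination libraries differ more than those of the other arms. Combination library 1 stood apart from its replicates: the variance between replicate pairs was 7.21 and 8.95 times counting noise for pairs that held it, 3.32 times for combination libraries 2 and 3, and 1.67 to 2.54 times for the cisplatin pairs. GSK-J4 library 3 stood apart in the same way (7.57 and 9.88 times counting noise, against 1.83 for the other GSK-J4 pair). Where leaving out combination library 1 moved the count of a gene list by over 1.5 times, the count without it stands in the same paragraph. Embryonal carcinoma markers were expressed, with summed levels of 11240 to 11394 CPM (counts per 1e6 reads) in cisplatin and 9457 to 9792 CPM in combination libraries over the 11 markers measured, and TDGF1 was not listed. Fibroblast and immune markers summed to at most 122.1 CPM, and PTPRC, CD3E, CD14, COL3A1, DCN and LUM were not listed. Whether shifts in the mix of cell states took part in any result was not tested, and in such bulk RNA fewer cells of a type and less RNA per cell cannot be told apart.

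Adding GSK-J4 to cisplatin moved many genes by small amounts and a few by large ones. A called gene had to pass a Benjamini-Hochberg adjusted p of 0.05 in limma and a fold change of 1.3 in either direction. By this rule 1792 genes rose (10.5% of those tested) and 1503 fell (8.82%), and the median absolute log2 fold change of called genes was 0.585. Large changes were mostly rises: 304 genes rose and 77 fell by more than 2-fold. The median over all genes was -0.001 on the log2 scale. Combination and cisplatin libraries did not overlap for 59.3% of all genes, so absence of overlap alone says little about a gene here. Without combination library 1, 1529 genes rose and 1150 fell.

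KDM6A, the first target of GSK-J4, was at 7.23, 7.23 and 7.22 log2 CPM with cisplatin and at 7.21, 7.22 and 7.21 with the combination. These libraries overlap, and the log2 difference was -0.01 ± 0.03 (SE, adjusted p = 0.79). KDM6B, the other target, was at 4.63, 4.53 and 4.56 log2 CPM with cisplatin and rose to 5.39, 5.30 and 5.22 with the combination. That is a log2 fold change of 0.73 ± 0.07 (adjusted p = 8.7e-10), and GSK-J4 without cisplatin gave 0.81. Since GSK-J4 acts on the enzymes and not on their transcripts, neither value checks the treatment. The sh6A+6B cells, in contrast, had log2 differences of -0.96 in KDM6A and -1.24 in KDM6B. None of the 12 measured polycomb repressive complex 2 genes was called, and their median log2 fold change was -0.08. EZH2, the H3K27 methyltransferase of that complex, differed by 0.14 ± 0.04 (adjusted p = 0.0028), which is under the fold limit.

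The largest rises were in single genes of different roles. LAMP3, a lysosomal membrane protein induced in starvation and stress, was at 0.35, 0.11 and 0.09 log2 CPM with cisplatin and at 4.97, 4.65 and 4.46 with the combination. This is a 22.8-fold rise (log2 4.51 ± 0.12, adjusted p = 1.6e-20). TAC1, the precursor of the neuropeptide substance P, had 11 reads over the 3 cisplatin libraries and 859 over the 3 combination libraries. The ratio at equal depth was 76.7 (95% exact binomial interval 42.6 to 154, counting error only), while the fitted fold of 44.7 depends on the prior count. DDR2, a collagen-binding receptor tyrosine kinase, rose from 0.76, 0.84 and 0.78 to 4.69, 4.42 and 4.28 log2 CPM (log2 3.67 ± 0.11, adjusted p = 3.5e-19). The ranking kept only genes whose combination and cisplatin libraries did not overlap, so the separation of these genes was set by the choice. TAC1 reached the required mean of 1 CPM only through its combination libraries. THRB, a thyroid hormone receptor, rose by 3.58 ± 0.14 on the log2 scale, NIBAN1, a stress-induced regulator of translation, by 3.27 ± 0.06, LONRF2 by 3.21 ± 0.24 and the nicotinic receptor subunit CHRNA9 by 2.68 ± 0.25 (adjusted p between 1.5e-24 and 2e-09). INHBE, an activin subunit known as a target of the stress response, rose by 3.47 ± 0.15.

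Of the genes averaging 1 CPM or more, the largest falls were smaller than the largest rises. PPFIA4, a liprin of synaptic scaffolds, was at 1.83, 2.15 and 2.12 log2 CPM with cisplatin and at 0.44, 0.64 and 1.11 with the combination, a 2.47-fold fall (log2 -1.3 ± 0.17, adjusted p = 3.2e-07). SP7, an osteoblast transcription factor, fell by the same amount (-1.3 ± 0.21). IL13RA2, a decoy receptor for interleukin 13, was at -1.23 ± 0.08 and RGS4, a brake on G protein signaling, at -1.20 ± 0.09 (adjusted p = 3e-12 and 5.9e-11). RGS4 stood at 6.94, 6.91 and 6.94 log2 CPM with cisplatin and at 5.33, 5.77 and 6.09 with the combination, so its combination libraries spread far more than its cisplatin libraries. PRAMEF12, MYH7B, MAST1, INSYN1 and RFPL4B had log2 values between -1.23 and -1.14. GOLGA6FP among the falls and ASNSP1 among the rises are pseudogenes with near-identical copies, and their values are uncertain.

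The integrated stress response was the gene group with the largest median change. Of the 24 measured genes of the ATF4-CHOP core list, 17 rose and none fell, against 10.5% and 8.82% of all genes, and the list median was 1.08 on the log2 scale. DDIT3, which encodes CHOP, was at 2.21, 2.45 and 2.20 log2 CPM with cisplatin and at 5.07, 4.81 and 4.66 with the combination, a 5.9-fold rise (log2 2.56 ± 0.09, adjusted p = 3.1e-18). TRIB3, a pseudokinase induced by CHOP, rose 8.78-fold, from 3.73, 3.62 and 3.65 to 7.05, 6.70 and 6.65 log2 CPM. Untreated and cisplatin libraries overlapped for both genes, with untreated levels at 2.20 to 2.30 log2 CPM for DDIT3 and 3.64 to 3.67 for TRIB3. NUPR1, a small chromatin-bound stress protein, rose by 2.63 ± 0.18. ATF4 itself, which is controlled largely at translation, had a log2 difference of 0.38 ± 0.03 (adjusted p = 8.2e-10), just under the fold limit, and passed it when cisplatin library 2, combination library 2 or combination library 3 was left out. Of the kinases that start the response, EIF2AK3 (PERK) differed by 0.07 and EIF2AK4 (GCN2) by 0.12, neither called. EIF2AK2 (PKR) was at 0.39, just over the fold limit, and was not called without combination library 1 (0.34). FGF21, a secreted hormone of the response, had 4 reads with cisplatin and 83 with the combination, a ratio of 20.4 (7.66 to 76.5).

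**Figure D1:**
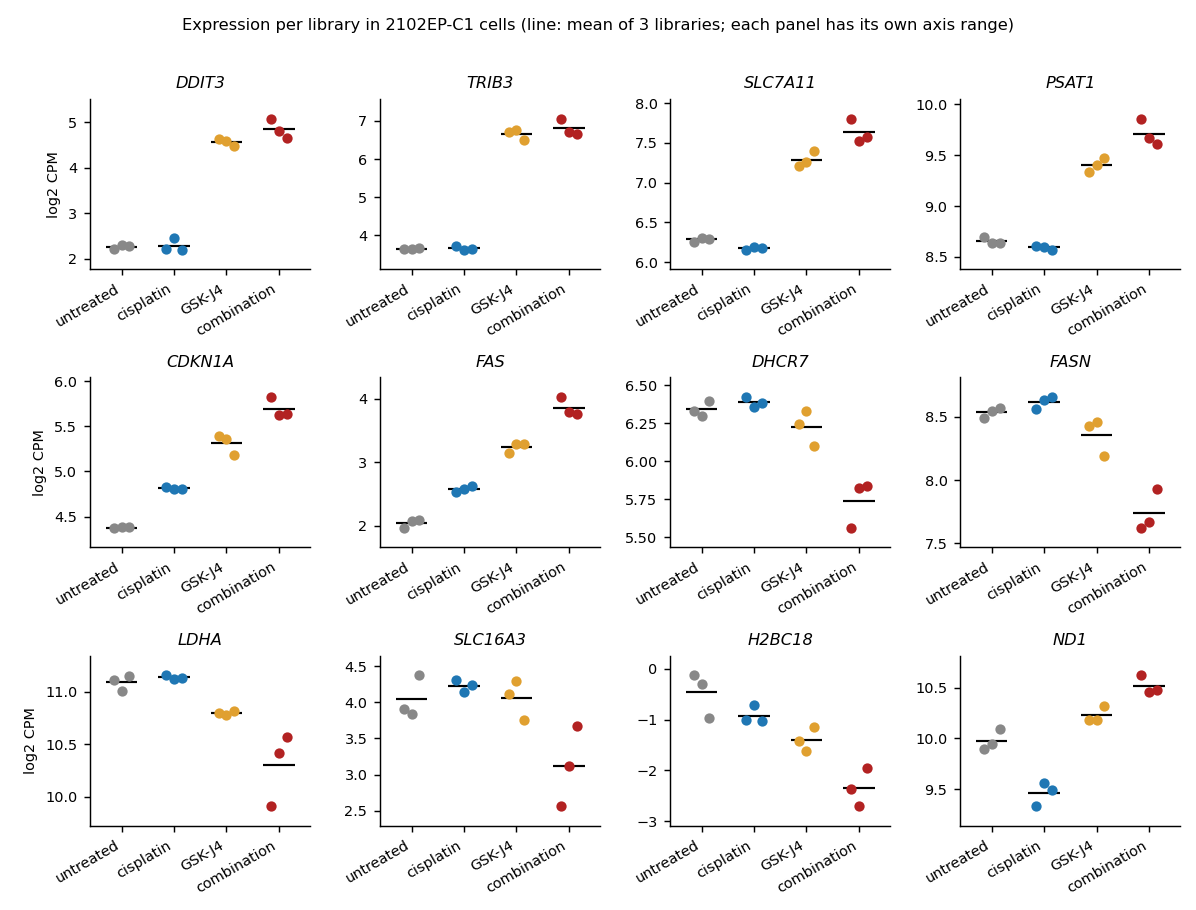
Log2 CPM (y axis) in each of the 12 libraries of the 4 arms (x axis) for 12 genes, with points for libraries and a line for the mean of 3. DDIT3, TRIB3, SLC7A11 and PSAT1 are high in both GSK-J4 arms, CDKN1A and FAS step up over the arms, DHCR7, FASN, LDHA, SLC16A3 and H2BC18 are lowest with the combination, and ND1 is lowest with cisplatin alone (9.33 to 9.56) and highest with the combination (10.45 to 10.62).

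Genes of amino acid synthesis, transport and tRNA charging, many of which ATF4 is known to drive, were read as separate lists, against 10.5% of all genes called up and 8.82% called down. Of 17 measured genes of serine, one-carbon, proline and asparagine synthesis, 12 rose and 1 (PYCR3) fell, with a median of 0.73. PSAT1, which makes phosphoserine, was at 8.61, 8.60 and 8.57 log2 CPM with cisplatin and at 9.86, 9.67 and 9.61 with the combination (log2 1.12 ± 0.04, adjusted p = 2.9e-17). MTHFD2, a mitochondrial folate enzyme, rose by 1.19 ± 0.04, and ALDH1L2, another folate enzyme of mitochondria, by 1.85 ± 0.08. Of 21 amino acid transporters, 11 rose and 2 fell (SLC38A3 and SLC7A8), with a median of 0.46. The counts were 11 up and none down without combination library 1. SLC7A11, the cystine importer that feeds glutathione synthesis, rose from 6.16, 6.19 and 6.18 to 7.80, 7.53 and 7.57 log2 CPM (log2 1.46 ± 0.05, adjusted p = 5e-18). SLC38A1 rose by 1.68 ± 0.05, SLC1A4 by 1.53 ± 0.08 and SLC6A9 by 1.39 ± 0.08. Of 23 cytosolic aminoacyl-tRNA synthetase genes, which charge tRNAs, 8 rose, led by SARS1 (0.94), GARS1 (0.82), WARS1 (0.81) and CARS1 (0.79), and their median was 0.26. None of the 17 mitochondrial synthetase genes was called (median -0.13). ASNS, asparagine synthetase, was counted at only 7 to 16 reads with cisplatin and 30 to 43 with the combination (log2 1.40 ± 0.27, adjusted p = 0.0001). In RefSeq the read-through gene CZ1P-ASNS overlaps it, the handling of shared reads was not stated, and its level here is uncertain.

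The promoters of these genes were searched for TGATGNAA (N, any base; both strands), the core of the composite element that ATF4 and CHOP bind with C/EBP partners. Windows ran from 250 bases before to 50 after the annotated start in RefSeq (GRCh38.p14). The letters were found for 17 of the 37 called-up genes with a window on these 4 lists: 5 of 15 in the ATF4-CHOP core, 4 of 8 transporters, 3 of 7 synthesis genes and 5 of 7 tRNA synthetases. Counting all searched members, called or not, the letters were found in 6 of 21, 5 of 16, 3 of 10 and 7 of 18. Among the 12821 table genes with a window, 392 (3.06%) held them, as did 5.96% of genes called up and 3.18% of genes called down in the whole table, and 3.62% of all 35116 windows. No window of the 18 cholesterol genes or the 12 fatty acid genes held them. Many members of the 4 lists are known ATF4 targets, so a share above that of all genes can follow from the choice of lists alone. Whether the letters go with the rises was not tested. The 6 matches below are those of the called-up list members with the largest fold changes whose match lay wholly before the start. They are printed on the strand of the gene, 5′ to 3′, with the match in capitals, so that the differing neighbourhoods of the shared letters can be compared.
FGF21 (chr19:48755444-48755503, plus strand): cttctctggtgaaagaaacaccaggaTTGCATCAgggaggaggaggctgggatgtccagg
ATF3 (chr1:212565190-212565249, plus strand): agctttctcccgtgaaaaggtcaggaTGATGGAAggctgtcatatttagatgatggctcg
CHAC1 (chr15:40953236-40953295, plus strand): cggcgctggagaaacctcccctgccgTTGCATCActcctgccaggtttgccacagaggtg
CEBPG (chr19:33374045-33374104, plus strand): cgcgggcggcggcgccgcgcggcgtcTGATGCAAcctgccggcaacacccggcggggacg
ASNS (chr7:97872443-97872502, minus strand): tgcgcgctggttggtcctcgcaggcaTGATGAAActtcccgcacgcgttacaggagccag
JDP2 (chr14:75427980-75428021, plus strand): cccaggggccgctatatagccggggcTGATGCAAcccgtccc
In FGF21 and CHAC1 the element lies on the opposite strand and reads TTGCATCA. ATF3 (TGATGGAA) and ASNS (TGATGAAA) differ from the others at N, while CEBPG and JDP2 share TGATGCAA. Their log2 fold changes were 2.72 (FGF21), 1.79 ± 0.07 (ATF3, a stress-induced transcription factor), 1.63 ± 0.20 (CHAC1, which degrades glutathione), 1.46 ± 0.05 (CEBPG, a C/EBP partner of ATF4), 1.40 (ASNS) and 1.02 (JDP2, a repressor that dimerizes with JUN). A match is a description of letters and does not show binding.

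Other protein homeostasis, antioxidant and metal genes are read against 10.5% of all genes called up and 8.82% called down. Of 24 endoplasmic reticulum chaperone and unfolded protein response genes, 3 rose and 4 fell (median -0.19). HSPA5, the main chaperone of that compartment, had a log2 difference of -0.23 ± 0.03, under the fold limit, and SDF2L1, one of its partners, fell by 0.96. The list had 1 gene up and 3 down without combination library 1. Of 32 autophagy genes and mTORC1 brakes, 8 rose, among them SQSTM1, a receptor for autophagy cargo (1.01 ± 0.06), and CASTOR2 fell. In the fit that left out combination library 1, 5 autophagy genes rose and 1 fell. Of 19 NRF2 antioxidant genes 5 rose, led by NQO1 (1.06), and HMOX1, a heme-degrading enzyme, had 0.20 ± 0.06. Of 14 iron genes 3 rose and 2 fell: the ferritin chains FTL (0.65 ± 0.05) and FTH1 (0.56) and the iron exporter SLC40A1 (1.04 ± 0.13) rose, the transferrin gene TF (-0.83) and the ferrireductase STEAP3 (-0.59) fell, and the transferrin receptor TFRC differed by 0.06 (adjusted p = 0.13). Of 10 metallothioneins, which bind metals, 3 fell and none rose, with MT1X at -0.84 ± 0.06.

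Many p53 targets rose above their level with cisplatin alone. Of 18 arrest and feedback targets 9 rose, of 17 death targets 7, and of 29 repair and metabolism targets 10, none fell, and the medians were 0.50, 0.30 and 0.26. Over all genes 10.5% were called up and 8.82% down. CDKN1A, the p21 inhibitor of cyclin-dependent kinases, was at 4.37 to 4.38 log2 CPM in untreated libraries, at 4.83, 4.81 and 4.81 with cisplatin, at 5.39, 5.36 and 5.18 with GSK-J4, and at 5.82, 5.63 and 5.64 with the combination. The 4 arms did not overlap, and the log2 fold change of the combination over cisplatin was 0.88 ± 0.05 (adjusted p = 6.6e-13). MDM2, which degrades p53, stepped up likewise, from 9.11, 9.10 and 9.16 with cisplatin to 9.86, 9.71 and 9.70 with the combination (0.64 ± 0.04).

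Among p53 targets with other inputs, GDF15, a stress cytokine, rose by 1.98 ± 0.06, BTG2, an antiproliferative gene, by 1.61 ± 0.09, and TP53INP1 by 1.3 ± 0.06. FAS, a death receptor, was at 2.53, 2.58 and 2.62 log2 CPM with cisplatin and at 4.03, 3.79 and 3.76 with the combination (log2 1.28 ± 0.08, adjusted p = 2.6e-12). TNFRSF10B, a receptor for TRAIL that CHOP is also known to drive, rose by 0.79 ± 0.05, its decoy TNFRSF10C by 0.93 ± 0.11 and PMAIP1 (NOXA), a BH3-only protein, by 0.92 ± 0.05. BBC3 (PUMA) was at 0.24 ± 0.07 (adjusted p = 0.0089) and the nucleotide excision repair gene DDB2 at 0.23 ± 0.04, both under the fold limit. ANXA1 (1.68 ± 0.06), KITLG (1.24 ± 0.05) and SPATA18 (1.16 ± 0.09) led the repair and metabolism list. Without combination library 1 the 3 lists had 9, 7 and 8 genes up and 0, 0 and 1 down.

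Cell death genes of the BCL2 family, whose list was not kept apart from the p53 lists, moved in both directions. HRK, a BH3-only death protein, was at 0.49, 0.48 and 0.56 log2 CPM with cisplatin and at 3.09, 2.95 and 2.82 with the combination, a 5.44-fold rise (log2 2.44 ± 0.11, adjusted p = 2.3e-15). BCL2L1, which encodes the survival protein BCL-XL, rose as well (0.49 ± 0.04), and BCL2L11 (BIM) had 0.03 ± 0.06 (adjusted p = 0.71). Of 17 BCL2 family genes, 3 rose and 2 fell (17.6% and 11.8%), against 10.5% of all genes called up and 8.82% called down. Of 41 crosslink, excision and translesion repair genes 1 rose and 2 fell, and ERCC1 was at -0.11 (adjusted p = 0.28). The copper transporter SLC31A1, an entry route of cisplatin, was at -0.01 (adjusted p = 0.79). Without combination library 1, 3 BCL2 family genes rose and 1 fell, and no repair gene rose and 1 fell.

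Genes of lipid synthesis and glycolysis fell. Of 24 cholesterol synthesis and uptake genes 13 fell and none rose (median -0.45), of 13 fatty acid synthesis genes 6 fell and none rose (median -0.38), and of 33 hypoxia response and glycolysis genes 14 fell and 3 rose (median -0.35), against 8.82% of all genes called down. DHCR7, a late enzyme of cholesterol synthesis, was at 6.42, 6.36 and 6.38 log2 CPM with cisplatin and at 5.56, 5.82 and 5.84 with the combination (log2 -0.65 ± 0.06, adjusted p = 6e-10). LSS, which closes the sterol rings, was at -0.67 ± 0.07, and HMGCS1, near the start of the pathway, fell by 0.51. FASN, fatty acid synthase, was at 8.56, 8.64 and 8.66 log2 CPM with cisplatin and at 7.62, 7.67 and 7.93 with the combination (log2 -0.88 ± 0.06, adjusted p = 3.8e-12). The desaturases SCD (-0.55) and FADS2 (-0.53) and the SREBP gene SREBF1 (-0.55) fell with it.

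LDHA, which makes lactate, was at 11.16, 11.12 and 11.13 log2 CPM with cisplatin and at 9.91, 10.42 and 10.57 with the combination (log2 -0.84 ± 0.08, adjusted p = 5.6e-09). SLC16A3, a lactate exporter, was at 4.31, 4.14 and 4.23 and then at 2.57, 3.12 and 3.68 (log2 -1.11 ± 0.17). In both genes every combination library lay below every cisplatin library, and combination library 1 was the lowest. The 3 genes of the glycolysis and hypoxia list that rose are secreted factors or a collagen-modifying enzyme: VEGFA (1.11 ± 0.05), known to be driven by ATF4 as well, ADM (0.76 ± 0.07) and P4HA2 (0.47). ALDOA had -0.77, but it shares its locus in RefSeq with LOC112694756 and its level is uncertain. Without combination library 1, 10 cholesterol, 4 fatty acid and 7 glycolysis genes fell, with medians of -0.34, -0.29 and -0.26, and HMGCS1 was among the genes no longer called.

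**Figure D2:**
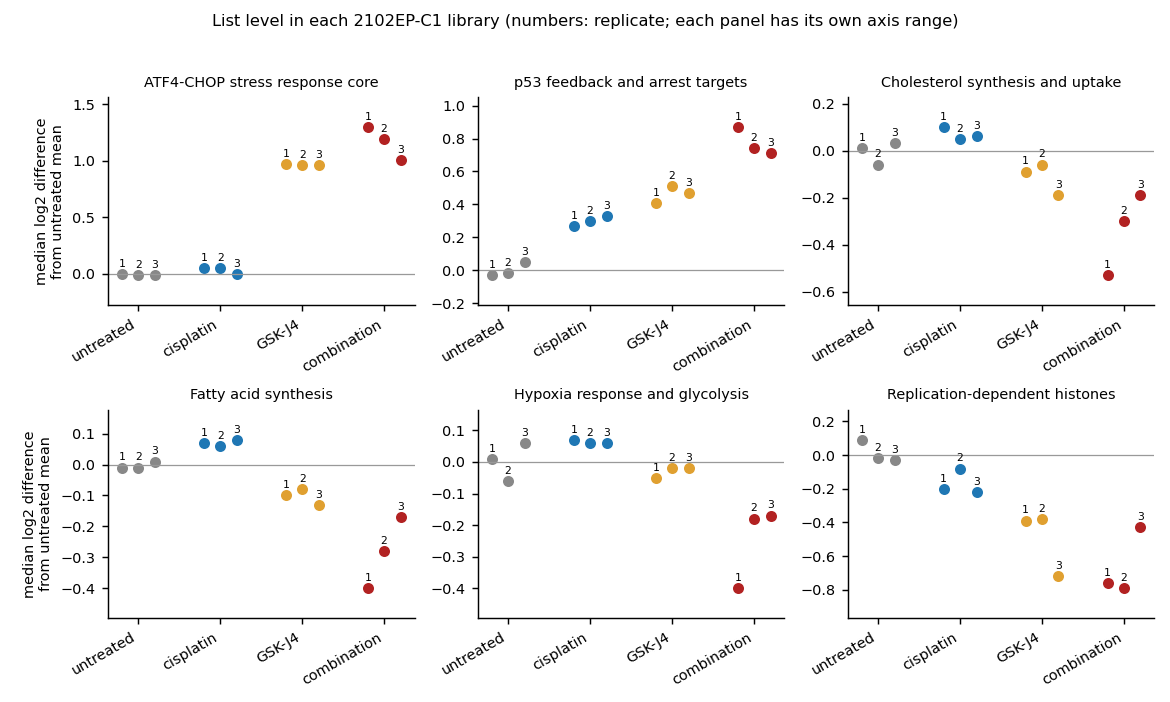
Median log2 difference of the members of 6 gene lists from their untreated means (y axis) in each of the 12 libraries (x axis, by arm, numbered by replicate). The ATF4-CHOP list is at 0.96 to 0.97 with GSK-J4 and 1.01 to 1.3 with the combination, the p53 list steps up over the arms, and combination library 1 is lowest for the cholesterol (-0.53), fatty acid (-0.40) and glycolysis (-0.40) lists.

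GSK-J4 alone was set beside these values to ask whether its effect differed in the presence of cisplatin. No separate harvest time was given for the GSK-J4 and untreated arms. A difference in time since GSK-J4 therefore cannot be told apart from the presence of cisplatin. GSK-J4 against untreated cells called 1327 genes up (7.79%) and 531 down (3.12%), in libraries that the main comparison does not share. Of the genes that rose in cisplatin-treated cells, 1035 also rose with GSK-J4 alone (57.8% of the former and 78% of the latter), and of those that fell 319 did (21.2% and 60.1%). Across all 17035 genes the log2 fold changes had r = 0.784 (Spearman 0.737), where genes are not independent replicates and both effects come from 1 fit. The difference of the GSK-J4 effects, with cisplatin minus without, was tested as an interaction. It was called in 33 genes upward (0.194%) and 113 downward (0.663%), and 85 of the 113 fell in cisplatin-treated cells and were not called with GSK-J4 alone. These counts depend on single libraries. The total of 146 became 64 without combination library 1, 258 without combination library 3 and 447 without GSK-J4 library 3, and moved by over 1.5 times without any of the 12 libraries except combination 2 and untreated 3.

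For the ATF4-CHOP core and the p53 lists the difference was small. The ATF4-CHOP core had 17 genes up with GSK-J4 alone (median 0.99) and 1 gene, CEBPG, called in the interaction (0.43, adjusted p = 0.003), which was no longer called without combination library 1. DDIT3 rose by 2.31 without cisplatin and 2.56 with it, and their difference of 0.25 ± 0.12 missed the threshold (adjusted p = 0.28). For TRIB3 the difference was 0.13 ± 0.10 (adjusted p = 0.52). No p53 list had a member called in the interaction, with medians of 0.04, 0.04 and 0.01. CDKN1A rose by 0.93 alone and 0.88 within cisplatin, a difference of -0.05 ± 0.08 (adjusted p = 0.77). SLC7A11 did differ, with a rise of 1.00 alone and 1.46 within cisplatin (difference 0.45 ± 0.07, adjusted p = 0.00081), as did SLC38A1 (0.40 ± 0.08, adjusted p = 0.0062). Neither was called without combination library 1, where the differences were 0.37 and 0.29, under the fold limit. The transporter list had an interaction median of 0.05. The amino acid synthesis and tRNA synthetase lists had 0.19 and 0.11 with no member called. These 2 lists had 10 and 5 genes up with GSK-J4 alone, against 12 and 8 within cisplatin. Without GSK-J4 library 3, 2 synthesis genes were called upward in the interaction. INHBE, one of the largest rises, had a difference of 0.81 ± 0.21 (adjusted p = 0.036), and lost this call in 10 of the 12 fits that left out 1 library.

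**Figure D3:**
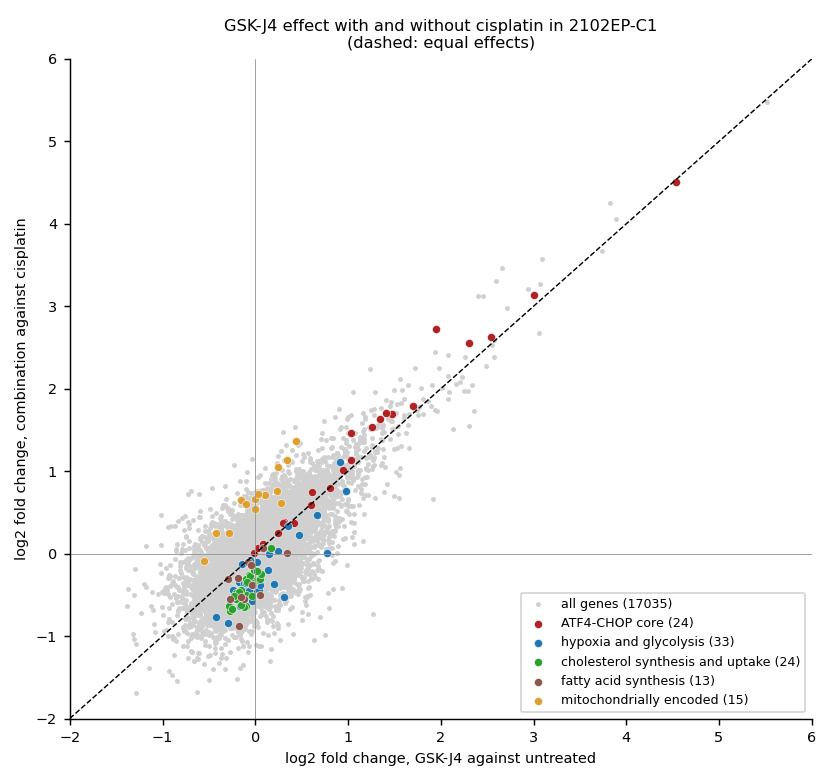
Log2 fold change of the combination over cisplatin (y axis) against that of GSK-J4 over untreated (x axis) for the 17035 genes, with 5 groups in color and a dashed line of equal effects. ATF4-CHOP genes lie along the line and the 15 mitochondrially encoded genes lie above it. The lipid and glycolysis lists have medians under the line and near 0 on the x axis, but 5 glycolysis and hypoxia genes were called up and 1 down with GSK-J4 alone.

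Lipid and glycolysis genes made up part of the interaction. With GSK-J4 alone none of the 24 cholesterol genes and none of the 13 fatty acid genes was called (medians -0.10 and -0.08), and 5 glycolysis and hypoxia genes rose and 1 fell (median -0.05). The interaction was called downward in 7, 3 and 11 genes of these lists, against 0.663% of all genes, with medians of -0.31, -0.34 and -0.28. Summed cholesterol levels were higher with cisplatin (4926 to 5093 CPM) than in untreated cells (4606 to 4844). So were fatty acid levels (4113 to 4155 against 3885 to 4017), while glycolysis levels overlapped (25790 to 26365 against 24684 to 26441). The interaction includes these rises. Combination sums lay below the untreated ones for each list (3068 to 3957, 2760 to 3362 and 18526 to 21418). FASN fell by 0.70 more in the presence of cisplatin (± 0.08, adjusted p = 1.2e-05), DHCR7 by 0.53 more (adjusted p = 0.00051) and LDHA by 0.54 more (adjusted p = 0.014). Among genes chosen after their values were seen, SLC2A1, the glucose importer, was at -0.48 (adjusted p = 0.00042), HK2, hexokinase, at -0.41 (0.003) and INSIG1, a sterol sensor, at -0.53 (0.0088). Combination library 1 weighs on these counts. Without it LDHA, HK2 and INSIG1 lost their calls, 1 cholesterol, 1 fatty acid and 3 glycolysis genes were called, with medians of -0.22, -0.28 and -0.23, and without GSK-J4 library 3 the counts were 10, 5 and 11.

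Of the other large interaction values, MAST1, a microtubule-associated kinase, was at 0.89, 0.66 and 0.50 log2 CPM with cisplatin and at -0.57, -0.68 and -0.17 with the combination, while it was at 0.64, 0.60 and 0.29 with GSK-J4 alone and at 0.12, 0.19 and 0.69 in untreated cells (interaction -1.33 ± 0.28, adjusted p = 0.012). SLC16A3 had -1.12 ± 0.23, FOXP2, a forkhead factor, -1.12 ± 0.28, the phosphatase PTPN5 -1.06 ± 0.27 and RFPL4B -0.96 ± 0.22. SETDB2, a histone methyltransferase, had 0.88 ± 0.24 (adjusted p = 0.048). Of the 12 fits that left out 1 library, SETDB2 lost the interaction call in 10, PTPN5 in 9, FOXP2 in 6 and RFPL4B in 4. LEFTY2, an inhibitor of NODAL signaling, rose with GSK-J4 alone (0.55) and was at -0.23 (adjusted p = 0.06) within cisplatin, an interaction of -0.79 ± 0.14 (adjusted p = 0.004). CER1, another NODAL and BMP antagonist, rose in both settings, by 1.56 and 0.96, and its interaction call was lost without combination library 1.

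Transcripts of the mitochondrial genome, a group picked after its values were seen, differed in the other direction. The 15 measured genes (13 proteins and 2 ribosomal RNAs) together held 8872 to 10129 CPM with cisplatin and 14026 to 15445 CPM with the combination, against 12412 to 14224 in untreated and 12797 to 13675 in GSK-J4 libraries. Cisplatin libraries were thus the lowest of the 4 arms and combination libraries lay above them without overlap. Of the 15 genes 12 rose within cisplatin-treated cells (median 0.66), against 10.5% of all genes called up and 8.82% called down. In the interaction 14 were called upward (median 0.66), against 0.194% of all genes. Both counts were the same without combination library 1. The 15 genes lie on the same small genome and are not independent of each other, so these counts are not 15 separate observations. ND1, a complex I subunit, was at 9.33, 9.56 and 9.49 log2 CPM with cisplatin and at 10.62, 10.45 and 10.48 with the combination (log2 1.06 ± 0.05, adjusted p = 4.2e-15, interaction 0.81 ± 0.07). RNR1, a ribosomal RNA, rose by 1.37 ± 0.11 (interaction 0.93 ± 0.15) and ATP8 by 0.65 ± 0.06 (interaction 0.80 ± 0.09). With GSK-J4 alone 1 of the 15 rose (RNR1) and 2 fell (COX2 and COX3). Nuclear genes for respiratory chain subunits did not share this: of 77 none rose and 5 fell (median -0.13), and of 75 mitochondrial ribosomal protein genes 1 rose and 2 fell.

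Lists of cell cycle and chromatin genes are read against 10.5% of all genes called up and 8.82% called down. Of 30 replication-dependent histone genes 11 fell and none rose (median -0.52), with 14 down and none up with GSK-J4 alone and none called in the interaction. Histone mRNAs lack poly(A) tails, and the libraries were made from polyadenylated RNA. H2BC18 had 51 reads over the cisplatin and 14 over the combination libraries (ratio 0.27, 0.138 to 0.494) and H1-5 had 77 and 20 (0.255, 0.148 to 0.421). Of 38 S phase genes 5 fell (13.2%, median -0.20), with E2F1 at -0.45 ± 0.06, and of 39 mitosis genes 4 fell (10.3%, median -0.14), with CCNB1, cyclin B1, at -0.37 ± 0.03 and under the fold limit. DNMT3B, the de novo DNA methyltransferase that is abundant in embryonal carcinoma, was at 11.58, 11.56 and 11.57 log2 CPM with cisplatin and between 10.81 and 11.03 with the combination (log2 -0.62 ± 0.04, adjusted p = 5.2e-13). UHRF1, which guides maintenance methylation, fell by 0.71 and TET2 rose (0.47). Of 12 KMT2 and SETD1 complex genes 2 fell (MEN1 and KMT2B), and of 27 CHD and SWI/SNF genes 1 rose (CHD2). Of 84 cytosolic ribosomal protein genes 1 (RPS26) fell, and of 71 splicing genes 4 fell. E2F1, MEN1 and RPS26 were no longer called without combination library 1, which left 1 gene down in the KMT2 list and none in the ribosomal list.

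Core pluripotency genes were mostly lower. Of 23 factors 17 were lower and 6 higher, and 5 were called down and 1 up (median -0.24). POU5F1 (OCT4) was at 9.45, 9.40 and 9.42 log2 CPM with cisplatin and at 9.47, 9.46 and 9.46 with the combination (0.04 ± 0.03, adjusted p = 0.31). SOX2 (-0.25 ± 0.03) and NANOG (-0.30 ± 0.03) passed the adjusted p but not the fold limit. FOXD3 (-0.86 ± 0.12), TERT (-0.81 ± 0.17), GDF3 (-0.73 ± 0.05) and ZFP42 (-0.68 ± 0.28, on 6 to 16 reads a library) fell, and so did UTF1. ZFP42 was not called in a fit of the 6 libraries alone or without any of the 6 libraries. Genes of other lineages moved at low levels. Of 6 measured yolk sac and endoderm markers 4 rose and 1 fell: HNF4A (1.97), AFP (6 reads with cisplatin and 42 with the combination), CER1 and GATA4 (0.82) rose and APOB fell (-0.81). Of 7 trophoblast markers 4 rose (TFAP2A, GATA2, HAND1 and GATA3, from 1.54 to 0.70) and 2 fell, and FOXA1, FOXA2, GATA6, SOX17, CGA and CDX2 were not listed. The yolk sac markers summed to 24.45 to 25.49 CPM with cisplatin and 27.46 to 29.22 CPM with the combination, and the trophoblast markers to 20.22 to 21.74 and 30.04 to 40.12 CPM. Of 62 developmental homeobox genes, a class that polycomb commonly marks, 8 rose and 13 fell (median 0.02), against 10.5% and 8.82% of all genes. MSX2 (1.01 ± 0.08) rose and PAX2 fell on few reads (55 and 15, ratio 0.268, 0.14 to 0.481). Of 31 NODAL and BMP genes 6 rose and 3 fell, with NODAL at -0.14 and ID4 at 1.01 ± 0.06.

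Matrix, adhesion and immune genes moved without a common direction. Of 71 collagens, laminins and integrins 10 rose and 7 fell, against 10.5% and 8.82% of all genes, and of 28 cadherins and epithelial-mesenchymal genes 6 rose and 1 fell. CDH2, N-cadherin, rose by 0.74 ± 0.07, while CDH1, E-cadherin, had 0.28 ± 0.03, under the fold limit. Of 27 AP-1 and immediate early genes 7 rose and 5 fell. The collagen list had 6 up and 6 down and the AP-1 list 5 up and 3 down without combination library 1. Of 16 HLA class I and antigen processing genes 3 rose and 1 fell, with HLA-B at 0.89 and TAP1 at 0.71, and of 22 interferon-stimulated genes none rose and 2 fell. Of 23 imprinted genes 6 fell and 1 rose, with GRB10 at 0.92 and H19 at -0.67. Without combination library 1, 1 interferon-stimulated gene rose, and 2 imprinted genes rose and 5 fell.

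NT2/D1-A4 cells, normalized separately, were read under the same contrast, and their difference from 2102EP-C1 was not tested. There 2107 genes rose (12.8%) and 1289 fell (7.84%). Over the 15663 genes in both tables, 868 rose in both lines (52.8% of those in 2102EP-C1 and 43.6% of those in NT2/D1-A4) and 406 fell in both (30.6% and 33.3%), with r = 0.579 across genes. The stress and p53 rises were present in that line: the ATF4-CHOP core had 17 of 23 genes up (median 1.33), and the p53 lists had 15 of 18, 11 of 17 and 19 of 28 up. Lipid and glycolysis values were unlike those of 2102EP-C1. Of 24 cholesterol genes 14 rose and none fell (median 0.47, against -0.45), of 13 fatty acid genes 2 rose and 2 fell, and of 33 glycolysis and hypoxia genes 5 rose and 2 fell. HMGCS1, for example, was at 0.55 in NT2/D1-A4 and -0.51 in 2102EP-C1, and LDHA at -0.38 and -0.84. Of 39 mitosis genes 21 fell there, and of the 15 mitochondrially encoded genes 4 rose.

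Hairpins against KDM6A and KDM6B in the same clone under cisplatin gave 1053 genes up (6.4%) and 1444 down (8.77%), in a table also normalized separately. Of the genes in both tables, 196 rose with GSK-J4 and with the hairpins (11.7% of the former, 20.7% of the latter), and 288 fell with both (20.2% and 20.4%). Another 99 that rose with GSK-J4 fell with the hairpins, and 97 that fell with GSK-J4 rose, with r = 0.146 across 16104 genes. The ATF4-CHOP core had 3 of 23 genes up (median 0.02), with DDIT3 at 0.22 and TRIB3 at -0.03. The p53 lists had 1 of 18, 2 of 17 and 5 of 29 genes up, among them FAS (0.68), KITLG (0.59) and ANXA1 (0.57), and CDKN1A was at 0.20. Of 24 cholesterol genes 1 rose and 1 fell. FASN (-0.46), SREBF1 (-0.40), DNMT3B (-0.47) and UHRF1 (-0.64) fell with the hairpins as they did with GSK-J4, whereas LDHA was at 0.37 against -0.84 and IL13RA2 at 0.83 against -1.23.

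**Figure D4:**
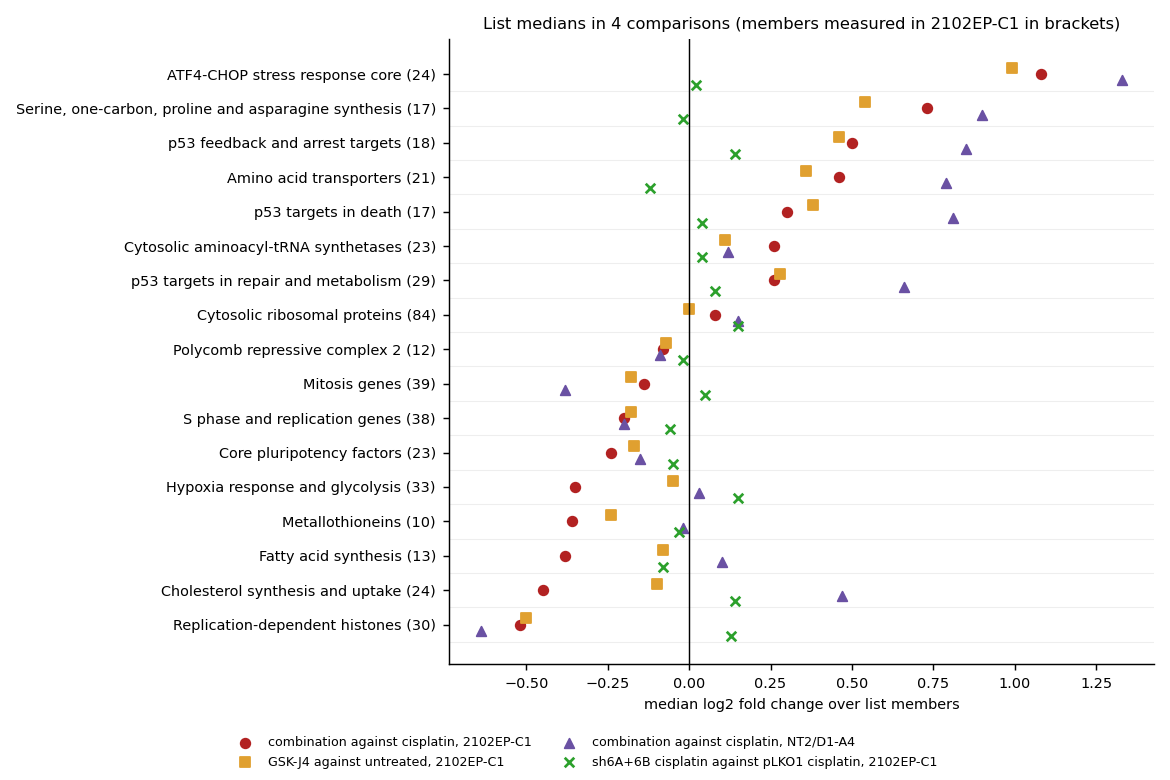
Median log2 fold change (x axis) over the members of 17 gene lists (y axis) in 4 comparisons, with the members measured in 2102EP-C1 in brackets. Stress and p53 lists lie to the right with GSK-J4 in 2102EP-C1 with and without cisplatin and in NT2/D1-A4 with cisplatin. They lie closer to 0 with sh6A+6B. The cholesterol list is at -0.45 within cisplatin-treated 2102EP-C1 cells, -0.10 with GSK-J4 alone and 0.47 in NT2/D1-A4 with cisplatin.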

How the data were processed

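RNA-seq of polyadenylated RNA (TruSeq Stranded mRNA) was used from 36 libraries, 3 per group. The authors used Trimmomatic for trimming, STAR for alignment to GRCh38.p14 and featureCounts for gene counts, with a filter of 0.5 CPM in 2 or more samples and TMM scaling. Tool versions and the strand setting were not given in the sources used here. The deposited values are log2 CPM, computed with TMM-scaled library sizes and a prior count of 3. Reads recovered under this formula were whole within 0.05 for 100% of 44365 values under 50 reads, and gave depth. A fold change is on this scale and is understated for low genes. Not every listed gene passed the stated filter (16492 of 17035).

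Each table was fitted with limma-trend (limma 3.58.1, R 4.3.3) over 12 libraries with group means and no block, the 2102EP-C1 comparisons as contrasts and two-sided moderated tests. The adjustment was over all genes of a table. On simulated data with planted changes of 1.5-fold, 2-fold and 4-fold in the main comparison, 100% were recovered with 5 false calls among 17035 genes. The simulated libraries shared the same spread with none standing apart, and genes with few reads received no planted change. Changes near the 1.3-fold limit were not planted either. The simulation checks the code and does not give the sensitivity or error rate of the real libraries. The 49 gene lists came from general knowledge or symbol patterns. The members, lists and alternatives were chosen with earlier results of these data known, and lists were described without a test of their own. Named genes were KDM6A and KDM6B, the 10 largest rises and falls that average 1 CPM or more without overlap between groups, the key members and up to 4 called members of a list with the largest changes, the 5 largest interactions each way, and called-up list members with the promoter motif. Symbols of unnamed loci, antisense and small RNA genes were left out of these ranks. Other genes named were chosen after their values were seen, and a few genes met by the rule are not reported here. RefSeq (GRCh38.p14) named 17020 of 17035 genes. Python 3.11.15 (pandas 2.3.3, numpy 2.4.6) made the tables, and matplotlib 3.10.9 drew the figures. Intervals cover counting error only.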

Additional observations from a re-analysis of the deposited data

Results flagged for a closer look

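The effect of GSK-J4 differed between cisplatin-treated and untreated 2102EP-C1 cells by the interaction test in 146 genes (limma, adjusted p under 0.05 and a difference over 1.3-fold). The log2 differences of the named genes were -1.33 for MAST1, -1.12 for FOXP2, -1.12 for SLC16A3, -1.06 for PTPN5 and -0.96 for RFPL4B, and 0.93 for RNR1, 0.88 for SETDB2, 0.81 for INHBE, 0.81 for ND1 and 0.80 for ATP8. Of the 12 fits that left out 1 library, INHBE and SETDB2 each lost the call in 10. MAST1, SLC16A3, RNR1, ND1 and ATP8 kept it in all 12.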

How the results depend on the processing

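Of the counts of called genes in the main comparison, 3295 became 8412 (4347 up and 4065 down) with no fold limit, and leaving out 1 library gave 2679 to 3591 (1529 to 1901 up, 1150 to 1690 down). The interaction count was least steady: leaving out 1 library gave 59 to 447 called, 19 to 91 up and 39 to 356 down, with the lowest count without GSK-J4 library 1 and the highest without GSK-J4 library 3. Keeping genes with a mean log2 CPM over 1 moved list medians to 0.908 for the ATF4-CHOP core, 0.637 for serine and one-carbon synthesis, 0.256 for death receptors, 0 for seminoma, -0.307 for yolk sac, -0.18 for neuroectoderm and -0.119 for fibroblast and immune markers, over fewer members. Without 1 library the fatty acid median ranged from -0.424 to -0.295 and the NODAL and BMP median from 0.019 to 0.083. The cause of these shifts was not tested beyond the fewer genes or libraries used. No called value of a named gene changed direction under any alternative. Deviations of same-numbered cisplatin and combination libraries correlated at 0.003, -0.038 and 0.095, so the numbers were not taken as pairs. With a replicate block 3291 genes were called in the main comparison (1797 up, 1494 down) and 129 in the interaction, and SETDB2 lost its interaction call (log2 0.883, adjusted p = 0.067). Genes with few reads are limited by depth.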
